A study of Mus musculus with 11 samples.

Results

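The dual-specificity MAP kinase phosphatases followed here are Dusp1, Dusp2, Dusp4, Dusp5, Dusp6, Dusp7, Dusp8, Dusp10, Dusp14 and Dusp16, 10 of the 52143 genes of the deposited expression table, taken by gene symbol. They were measured by sequencing of stranded total RNA from RAW cells, a mouse macrophage line. GIV, also called Girdin, is a scaffold that modulates trimeric G proteins and is encoded by Ccdc88a, and lipopolysaccharide (LPS) is the bacterial outer-membrane component sensed by Toll-like receptor 4. The 4 groups were cells with a hairpin against GIV (shGIV) and LPS at 100 ng/ml for 5 h (3 libraries), shGIV cells without LPS (3 libraries), cells with a control hairpin (shC) and the same LPS treatment (1 library), and shC cells without LPS (3 libraries). They are called GIV-depleted and control cells below, with or without LPS. A further sample, control cells with LPS replicate 3, is not analysed here. The labels give neither the hairpin sequences nor whether the lines are clones. They do not say that replicates were separate cultures, so the p-values measure only the spread between these libraries, which may be technical.

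These enzymes remove phosphate from both the threonine and the tyrosine of the activation loop of MAP kinases and so switch the kinases off. Many of their genes are themselves switched on by the pathways they restrain, which makes them feedback inhibitors, and in macrophages Dusp1 is the best known brake on p38 and JNK after Toll-like receptor stimulation. By place and substrate they fall into nuclear, mostly inducible enzymes (Dusp1, Dusp2, Dusp4 and Dusp5), cytoplasmic enzymes that prefer ERK (Dusp6 and Dusp7), enzymes that prefer p38 and JNK (Dusp8, Dusp10 and Dusp16), and the small atypical Dusp14, which lacks the amino-terminal kinase-binding region of the others.

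The stretch that encodes the catalytic loop is shown because all 10 share its histidine, cysteine and arginine. It was not sought in other genes. The capitals mark the codons of the catalytic histidine and cysteine at the left and of the arginine that binds the phosphate at the right. Coordinates are those of GRCm38 with the GENCODE M21 annotation, and each stretch of 24 bases lies within 1 coding exon.
Dusp1, chr17:26506592-26506615, minus strand: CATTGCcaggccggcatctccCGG
Dusp2, chr2:127337616-127337639, plus strand: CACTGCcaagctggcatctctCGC
Dusp4, chr8:34818433-34818456, plus strand: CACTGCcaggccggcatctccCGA
Dusp5, chr19:53540951-53540974, plus strand: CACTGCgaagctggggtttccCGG
Dusp6, chr10:99266027-99266050, plus strand: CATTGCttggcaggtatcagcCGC
Dusp7, chr9:106373674-106373697, plus strand: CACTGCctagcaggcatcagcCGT
Dusp8, chr7:142083333-142083356, minus strand: CACTGTctggctggcatctctCGC
Dusp10, chr1:184074293-184074316, plus strand: CACTGCcaggccggcgtgtccCGA
Dusp14, chr11:84048863-84048886, minus strand: CACTGTgcggcaggcgtgagcCGC
Dusp16, chr6:134720559-134720582, minus strand: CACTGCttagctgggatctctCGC

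Each coding sequence held the loop once in frame. The histidine codon was codon 257 of 367 in Dusp1, codon 283 of 398 in Dusp4 and codon 110 of 198 in Dusp14, the shortest of the 10 coding sequences. Dusp8, with 663 codons, and Dusp16, with 660, had the longest. Over the 24 bases Dusp4 shared 22 with Dusp1, Dusp10 shared 20, Dusp2 shared 19 and Dusp14 shared 14, the lowest number.

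The region upstream of the transcription start is shown for the 4 members whose transcripts were high enough for testing and had a mean TPM more than 8-fold higher with LPS than without in both kinds of cell (Dusp1, Dusp2, Dusp5 and Dusp16). The sequences are from RefSeq (GRCm38.p6), are 200 bases long and end at the base before the start. Capitals mark matches to the motifs named after them.
Dusp1, chr17:26508473-26508672, minus strand: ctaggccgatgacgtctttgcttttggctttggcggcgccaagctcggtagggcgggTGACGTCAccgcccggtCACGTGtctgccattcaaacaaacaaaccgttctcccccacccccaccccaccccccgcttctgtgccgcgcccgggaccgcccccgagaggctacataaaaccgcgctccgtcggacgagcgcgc
Dusp2, chr2:127335959-127336158, plus strand: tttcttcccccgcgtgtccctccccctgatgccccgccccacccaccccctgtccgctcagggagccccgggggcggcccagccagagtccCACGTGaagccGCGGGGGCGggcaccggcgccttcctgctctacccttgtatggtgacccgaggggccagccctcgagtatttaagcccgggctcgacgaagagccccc
Dusp5, chr19:53528945-53529144, plus strand: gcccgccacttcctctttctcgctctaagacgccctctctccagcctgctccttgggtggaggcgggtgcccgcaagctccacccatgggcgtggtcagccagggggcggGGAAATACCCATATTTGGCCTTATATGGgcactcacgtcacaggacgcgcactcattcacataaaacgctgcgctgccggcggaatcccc
Dusp16, chr6:134792629-134792828, minus strand: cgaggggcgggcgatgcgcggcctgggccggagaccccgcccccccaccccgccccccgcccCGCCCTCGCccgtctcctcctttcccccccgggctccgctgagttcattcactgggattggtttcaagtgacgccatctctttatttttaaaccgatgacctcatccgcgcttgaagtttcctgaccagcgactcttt

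In Dusp1 the capitals are a cyclic AMP response element (CRE, TGACGTCA) at positions -143 to -136, counted from the start, and an E-box (CACGTG) at -126 to -121. In Dusp2 they are an E-box at -109 to -104 and an EGR motif (GCGNGGGCG) at -98 to -90. In Dusp5 they are a match to the NF-kB type motif GGNNTTTCC on the reverse strand, at -90 to -82, and a pair of CArG boxes, the element bound by serum response factor, at -82 to -73 and -72 to -63. The first CArG box and the NF-kB type match share 1 base. Dusp16 held an EGR motif on the reverse strand at -138 to -130.

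The promoter table held 9 of the 10 genes, not Dusp4. The search covered 250 bases upstream on both strands, except TATAAA, which was sought on the sense strand. The CRE was in 2 of the 9 members (Dusp1 and Dusp8, which held it at 2 places) and in 1.55% of all 32851 windows. The E-box was in Dusp1 and Dusp2 and in 6.02% of windows, and the EGR motif in Dusp2 and Dusp16 and in 4.7% of windows. The NF-kB type motif was in Dusp5 and Dusp6 and in 4.93% of windows, the CArG box in Dusp5 and in 1.47%, and the STAT-type motif TTCNNNGAA in Dusp14 and in 7.02%. The core TGACG, which every CRE holds on both strands, was in 4 of the 9 members and in 17.8% of windows. The letters of AP-1 (TGANTCA, 6.75% of windows), C/EBP (TTGCNNAA, 9.56%) and TATAAA (7.59%) were in none of the 9 windows. The members' windows were 56.4% to 77.2% G and C, against a median of 52.4% over all windows.

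Values are in TPM, a transcript abundance scaled by transcript length and by library, so levels can be compared between genes. Differences are on the log2(TPM + 1) scale, which understates the change of low transcripts. Ccdc88a, the targeted transcript, was at 3.08, 2.62 and 3.39 TPM in GIV-depleted cells with LPS against 5.77 TPM in the control library with LPS, and at 6.93, 5.31 and 5.58 TPM in GIV-depleted cells without LPS against 10.0 and 7.69 TPM in control cells without it. It was lower in every GIV-depleted library than in any control library of the same treatment in the fit, but neither difference passed limma's test with Benjamini-Hochberg adjustment (log2 difference -0.75, adjusted p = 0.0681 with LPS; -0.50, adjusted p = 0.232 without). Of 10 macrophage markers 9 were at 1 TPM or more in all 9 libraries of the fit, and Mertk was below it. Markers of T cells, B cells, epithelium and fibroblasts were all under 1 TPM, as were the endothelial markers Cdh5 and Kdr, while Pecam1 reached 1.05 TPM. Control cells without LPS replicate 2 stood apart: over tested genes its median log2 difference from the other 2 libraries of its group was -1.85, and over the 9 tested members it was -1.41 (-2.63 to -0.67). Its Ccdc88a was at 1.18 TPM, below every GIV-depleted library. The choice to show this library apart and leave it out of the fit was made beforehand, with earlier results of these data known. Results with it are given separately. In bulk RNA, fewer cells with a transcript and less of it per cell cannot be told apart.

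Without LPS, the set was dominated by Dusp4, a nuclear phosphatase of ERK and JNK, and after 5 h of LPS by Dusp1. The summed level of the 10 transcripts was 793, 773 and 723 TPM in GIV-depleted cells with LPS and 116, 119 and 117 TPM without it. In the control library with LPS the sum was 655 TPM, and in control cells without LPS it was 126 and 143 TPM. The sums with LPS were thus above all sums without it in both kinds of cell. The library shown apart had a sum of 25.7 TPM.

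Dusp1 made up a mean of 55.3% of the sum in GIV-depleted cells with LPS and 16.2% in those without, and 41.2% in the control library with LPS and 13.2% in control cells without. Dusp4 showed the opposite order, with 8.94% in GIV-depleted cells with LPS and 54.6% in those without, and 26.4% in the control library with LPS and 59.7% in control cells without. Dusp5 held 17.4% in GIV-depleted cells with LPS and 16.2% in the control library with LPS, so with LPS Dusp1 and Dusp5 together led in GIV-depleted cells, while Dusp1 and Dusp4 led in the control library.

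**Figure D1:**
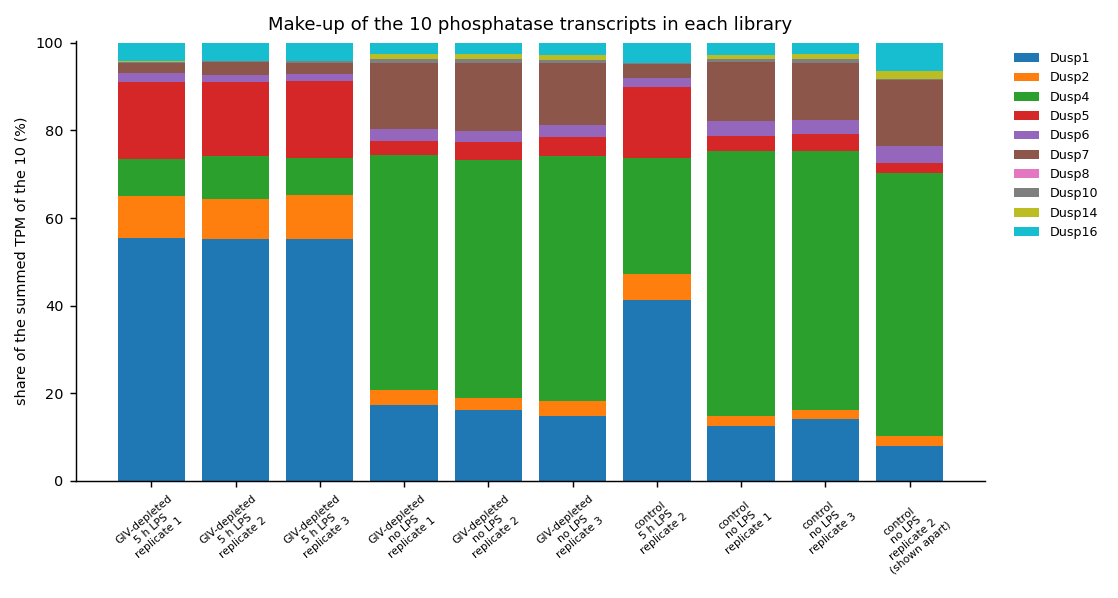
Share of the summed TPM of the 10 transcripts (%, y axis) taken by each transcript (colours) in each library (x axis), with the library shown apart at the right. Dusp4 fills 54.6% (mean) of the bar in GIV-depleted cells without LPS and 59.7% in control cells without LPS, and Dusp1 is the largest segment in every library with LPS.

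With LPS the order of levels in GIV-depleted cells was Dusp1, Dusp5, Dusp2, Dusp4, Dusp16, Dusp7, Dusp6, Dusp10, Dusp14 and Dusp8. Only the neighbours Dusp2 and Dusp4, and Dusp14 and Dusp8, overlapped in their ranges over the 3 libraries. In the control library with LPS, Dusp4 stood second, above Dusp5 and Dusp2, and the rest kept the same order, but 1 library gives no spread to judge neighbours by. Without LPS Dusp4 was highest in both kinds of cell, with no overlap with the next gene. Dusp1 and Dusp7 followed with overlapping ranges, then 4 members at a few TPM, and Dusp14, Dusp10 and Dusp8 lowest. In GIV-depleted cells those 4 were in the order Dusp5, Dusp2, Dusp6 and Dusp16, and each neighbouring pair overlapped. In control cells the order was Dusp5, Dusp6, Dusp16 and Dusp2, and of these neighbours only Dusp5 and Dusp6 overlapped. Dusp14 and Dusp10 overlapped in both kinds of cell.

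**Figure D2:**
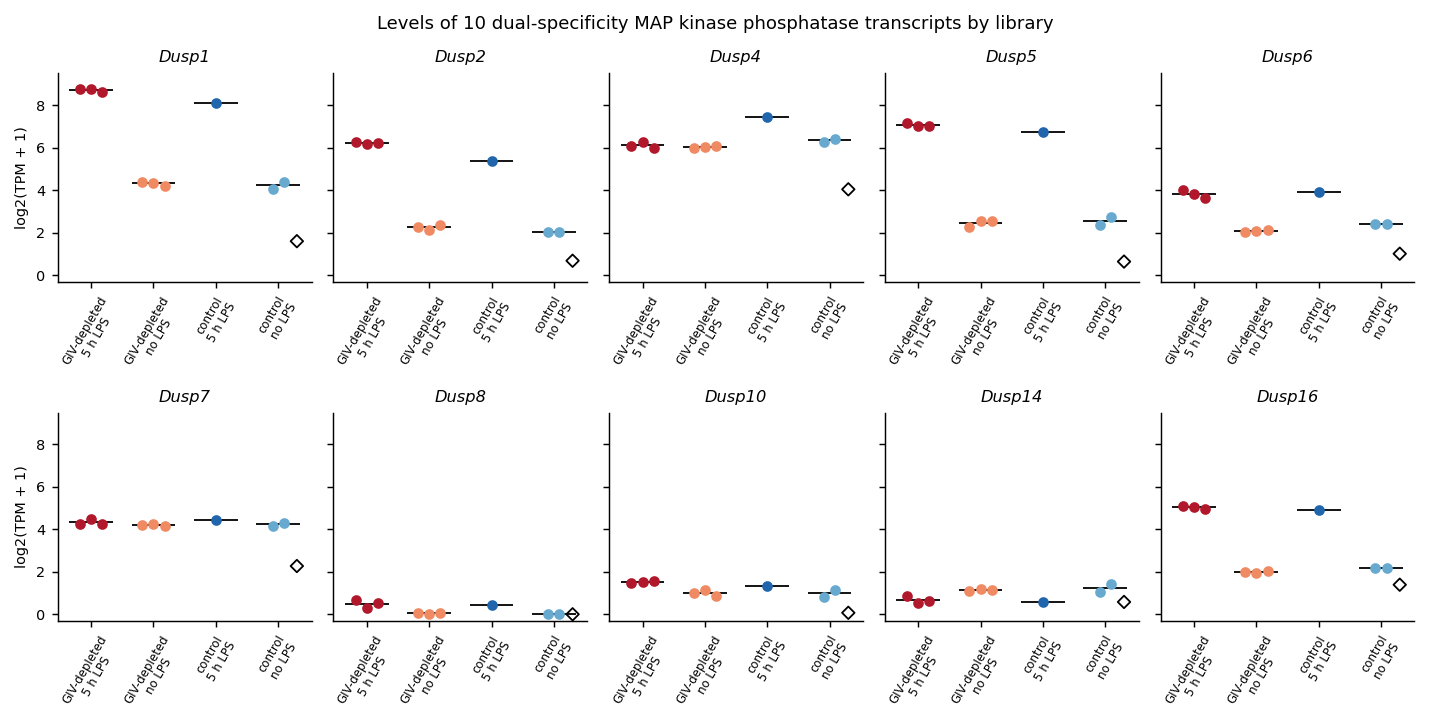
Level of each transcript (y axis, log2(TPM + 1)) in each library (points) of the 4 groups (x axis), with group means as bars and the library shown apart as an open diamond left out of the mean. Dusp1, Dusp2, Dusp5, Dusp6 and Dusp16 lie higher with LPS in both kinds of cell, while Dusp4 lies higher with LPS in the control library (173 TPM against 76.4 and 84.3 TPM) and overlaps in GIV-depleted cells.

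Of the 10 transcripts, 9 were high enough for testing (a log2(TPM + 1) value of 1 or more in 2 or more libraries) and Dusp8 was not. With LPS, 6 of the 9 rose and 1 fell in GIV-depleted cells at an adjusted p under 0.05. Over the 13711 tested genes 15.8% rose and 59.7% fell in that comparison. In control cells 6 of the 9 also rose and 1 fell, where 14.8% of tested genes rose and 44.1% fell. The median log2 difference over the tested members was 1.74 in GIV-depleted cells and 1.5 in control cells, and over all tested genes it was -0.54 and -0.40. The filter had let Dusp14 through by its libraries without LPS alone, so the fall it showed was favoured by that choice and supports nothing. Scaling the libraries by TMM moved the median of all genes in GIV-depleted cells to -0.06 and the split to 4305 higher and 4883 lower, against 2161 and 8188 as deposited. In control cells TMM gave a median of -0.02 with 3577 higher and 3649 lower, against 2025 and 6050. Under TMM and under quantile normalization 8 of the 9 members were higher in both kinds of cell and none lower. Of the 13711 tested genes, quantile normalization called 3748 higher and 5586 lower in GIV-depleted cells, and 2980 and 4357 in control cells.

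Among the nuclear enzymes, Dusp1, the inducible phosphatase of p38 and JNK, had 439, 427 and 399 TPM in GIV-depleted cells with LPS and 20.2, 19.4 and 17.4 TPM without it. In control cells it had 269.8 TPM with LPS and 15.6 and 20.1 TPM without. The libraries with LPS stood far above those without in both kinds of cell. The log2 difference was 4.41 ± 0.10 (SE) in GIV-depleted cells, a 22.2-fold ratio of mean TPM, and 3.85 ± 0.15 in control cells, a 15.1-fold ratio (limma, adjusted p = 1.64e-08 and 7.61e-07).

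Dusp2, a phosphatase of activated immune cells, had 75.8, 70.4 and 72.5 TPM in GIV-depleted cells with LPS and 3.79, 3.35 and 4.13 TPM without it. In control cells it had 39.7 TPM with LPS and 3.15 and 3.08 TPM without. Again no library with LPS came near one without. Its log2 difference was 3.96 ± 0.08 in GIV-depleted and 3.31 ± 0.11 in control cells (adjusted p = 8.23e-09 and 4.36e-07).

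Dusp5, an ERK-specific phosphatase, had 140.5, 131 and 128 TPM in GIV-depleted cells with LPS and 3.85, 4.83 and 4.96 TPM without it. The control library with LPS had 106 TPM, and control cells without LPS had 4.21 and 5.75 TPM. This was the largest LPS response of the set in both kinds of cell, at a log2 difference of 4.6 ± 0.12 (29.3-fold) in GIV-depleted and 4.18 ± 0.18 (21.3-fold) in control cells (adjusted p = 3.08e-08 and 1.17e-06).

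Dusp4, the nuclear phosphatase of ERK and JNK, showed another pattern. In GIV-depleted cells it had 67.6, 75.6 and 61.4 TPM with LPS and 62.1, 64.6 and 65.6 TPM without. In control cells it had 173 TPM with LPS and 76.4 and 84.3 TPM without. The ranges of GIV-depleted cells with and without LPS overlapped, whereas the control library with LPS had 2.15 times the mean of the control libraries without it. The log2 difference was 0.08 ± 0.08 in GIV-depleted cells (95% interval -0.11 to 0.28, adjusted p = 0.378) and 1.10 ± 0.12 in control cells (adjusted p = 0.000168). The first of these depended on the scaling: it was 0.66 (adjusted p = 5.77e-05) under TMM and 0.29 (adjusted p = 0.00378) under quantile normalization, within a range of adjusted p over all alternatives of 5.77e-05 to 0.951.

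Of the cytoplasmic ERK phosphatases, Dusp6 rose and Dusp7 did not pass the test. Dusp6 had 15, 13.2 and 11.2 TPM in GIV-depleted cells with LPS and 3.04, 3.23 and 3.37 TPM without it, while control cells had 14.1 TPM with LPS and 4.36 and 4.32 TPM without. It rose in both, by log2 differences of 1.74 ± 0.11 and 1.5 ± 0.16 (adjusted p = 2.51e-06 in GIV-depleted and 0.00013 in control cells). Dusp7 had 18.2, 21.5 and 18.2 TPM in GIV-depleted cells with LPS and 17.5, 18.4 and 16.6 TPM without, and control cells had 20.6 TPM with LPS and 17.0 and 18.8 TPM without. Its libraries lay close together in all groups, and neither log2 difference passed the test (0.13, interval -0.07 to 0.33, adjusted p = 0.198; and 0.19, interval -0.11 to 0.49, adjusted p = 0.235). Measured against the median gene, which fell, Dusp7 stood 0.67 higher with LPS in GIV-depleted cells and 0.59 higher in control cells, and it passed the test as higher under TMM (0.69 and 0.61) and quantile normalization (0.68 and 0.56).

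Of the enzymes that prefer p38 and JNK, Dusp16 was the abundant one after LPS. It had 33.6, 32.0 and 29.7 TPM in GIV-depleted cells with LPS and 3.0, 2.86 and 3.15 TPM without it, and control cells had 29.6 TPM with LPS and 3.61 and 3.57 TPM without. Libraries with and without LPS were far apart, with log2 differences of 3.03 ± 0.07 in GIV-depleted and 2.74 ± 0.11 in control cells (adjusted p = 1.85e-08 and 7.52e-07). Dusp10 was low throughout, at 1.8, 1.86 and 1.99 TPM in GIV-depleted cells with LPS and 1.01, 1.21 and 0.852 TPM without, and at 1.55 TPM in the control library with LPS and 0.773 and 1.23 TPM in control cells without. All libraries with LPS exceeded those without. How many of all tested genes were separated in this way was not computed, so the separation supports nothing. The log2 difference was 0.51 ± 0.14 (adjusted p = 0.0116) in GIV-depleted cells and 0.36 ± 0.22 (interval -0.14 to 0.86, adjusted p = 0.19) in control cells. Dusp8 was barely detected, at 0.576, 0.223 and 0.453 TPM in GIV-depleted cells with LPS and 0.0456, 0.00862 and 0.0651 TPM without. In the control library with LPS the level was 0.351 TPM, and the gene was listed at 0 in both control libraries without LPS, so no fold is given.

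Dusp14 was the only tested member that was lower with LPS. It had 0.843, 0.459 and 0.555 TPM in GIV-depleted cells with LPS and 1.17, 1.34 and 1.24 TPM without, and 0.501 TPM in the control library with LPS against 1.11 and 1.7 TPM in control cells without. The groups did not overlap, but the share of all tested genes without overlap was not computed, so this supports nothing. The log2 difference was -0.48 ± 0.16 (adjusted p = 0.0274) in GIV-depleted and -0.67 ± 0.25 (adjusted p = 0.0471) in control cells. In GIV-depleted cells this was 0.06 above the median gene, and neither call held under TMM (-0.21 and -0.46) or quantile normalization (-0.24 and -0.44). Leaving out GIV-depleted libraries with LPS replicate 2 or 3, or without LPS replicate 2 or 3, ended the call in GIV-depleted cells (-0.48 to -0.41). In control cells the call ended without any of those 4, GIV-depleted cells without LPS replicate 1, or control cells without LPS replicate 3 (-0.67 to -0.49).

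**Figure D3:**
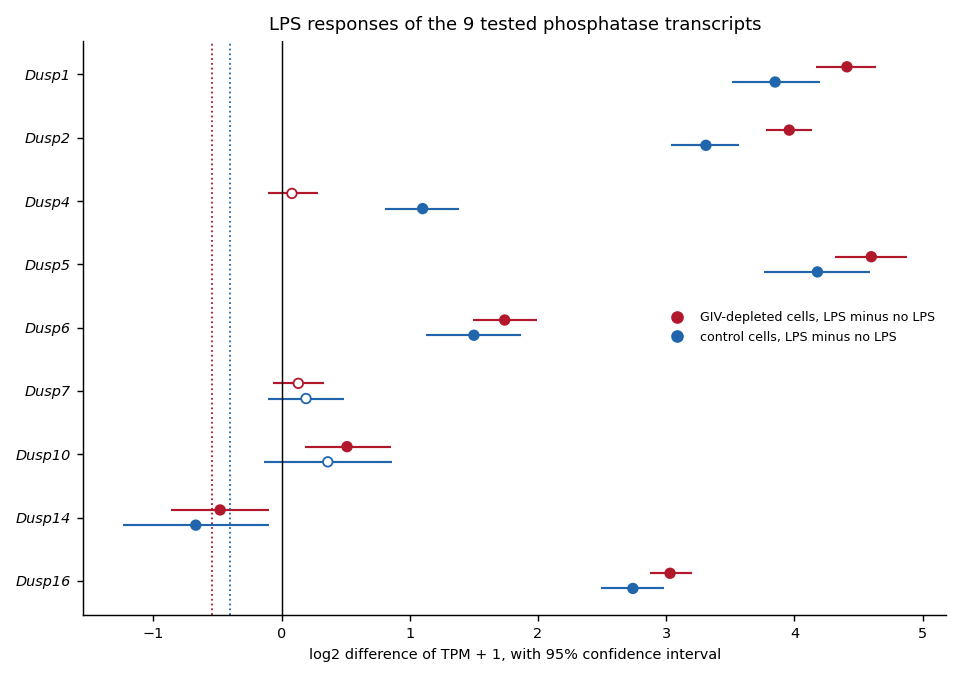
Log2 difference of TPM + 1 between LPS and no LPS (x axis) for the 9 tested transcripts (y axis), with 95% confidence intervals, in GIV-depleted cells (upper point of each pair) and control cells (lower point). Filled points passed limma's test, dotted lines mark the median of all tested genes (-0.54 and -0.40), and Dusp5 lies farthest to the right in both.

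The comparison of GIV-depleted with control cells under LPS sets the line with the GIV hairpin against the line with the control hairpin. Whether its differences come from the loss of GIV was not tested. Dusp1 and Dusp2 were higher and Dusp4 was lower in GIV-depleted cells, so that 2 of the 9 tested members were called higher and 1 lower, where 0.89% of tested genes were higher and 4.38% lower. The control side of this comparison is a single library, whose spread is taken from the other groups. Dusp4 was at 61.4 to 75.6 TPM in the 3 GIV-depleted libraries against 173 TPM in the control library, 0.395 of its level, with a log2 difference of -1.33 ± 0.12 (interval -1.60 to -1.06, adjusted p = 0.00268). Dusp2 was at 70.4 to 75.8 TPM against 39.7 TPM, a 1.84-fold ratio and a log2 difference of 0.86 ± 0.11 (interval 0.61 to 1.11, adjusted p = 0.00837). Dusp1 was at 399 to 439 TPM against 269.8 TPM, a 1.56-fold ratio and a log2 difference of 0.64 ± 0.14 (interval 0.31 to 0.97, adjusted p = 0.0446). All 3 GIV-depleted libraries lay on the same side of the control library for each of these genes. The same was true of the uncalled Dusp5, Dusp10 and Dusp16, so with 1 control library this adds no support. The calls held under TMM and quantile normalization but not under every alternative. The adjusted p of limma ranged over them from 0.00108 to 1 for Dusp4 and from 0.00388 to 1 for Dusp2. The call of Dusp1 ended when any of the 6 GIV-depleted libraries was left out (0.61 to 0.68, adjusted p = 0.0656 to 0.0897), and over all alternatives its adjusted p was 0.0104 to 1.

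The other 6 tested members did not pass in that comparison. Dusp5 differed by 0.32 (interval -0.07 to 0.71), Dusp10 by 0.18 (-0.29 to 0.65), Dusp14 by 0.10 (-0.44 to 0.64) and Dusp16 by 0.10 (-0.13 to 0.33). Dusp6 differed by -0.10 (-0.46 to 0.25) and Dusp7 by -0.09 (-0.38 to 0.19), and both of these signs turned under TMM and quantile normalization. The intervals leave room for differences of up to 0.71 on the log2 scale in Dusp5 and less in the remaining 5.

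Without LPS, none of the 9 tested members was called by limma, where 0.489% of tested genes were higher and 0.729% lower in GIV-depleted cells. At an unadjusted p under 0.05 there were 4 members and 1678 of all tested genes. Dusp4 was at 62.1 to 65.6 TPM in GIV-depleted cells against 76.4 and 84.3 TPM in control cells, without overlap, at a log2 difference of -0.32 ± 0.09 (interval -0.53 to -0.11, adjusted p = 0.204). It passed the test under quantile normalization alone (-0.40, adjusted p = 0.0361, in a range of 0.0361 to 0.637 over all alternatives). Dusp6 differed by -0.34 (interval -0.62 to -0.06), Dusp16 by -0.20 (-0.38 to -0.02) and Dusp2 by 0.21 (0.01 to 0.40). The adjusted p-values of these 3 were 0.306, 0.37 and 0.387. They also showed no overlap between the groups. The share of all tested genes without overlap was not computed, so the lack of overlap supports nothing. For Dusp1, Dusp5, Dusp7, Dusp10 and Dusp14 the groups overlapped and the differences lay between -0.10 and 0.09.

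**Figure D4:**
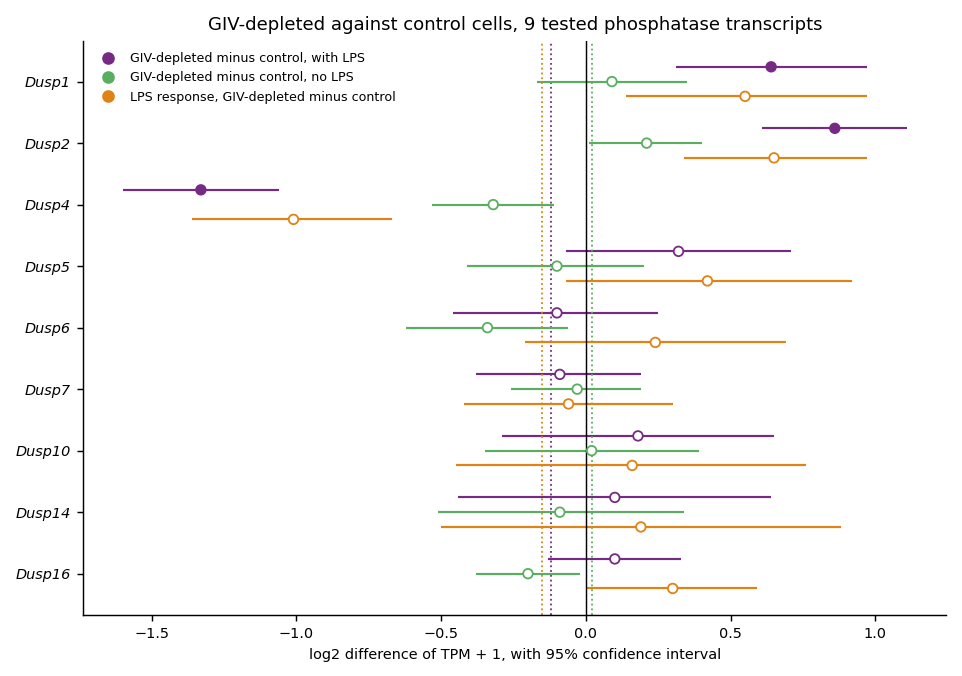
Log2 difference of TPM + 1 between GIV-depleted and control cells (x axis) for the 9 tested transcripts (y axis), with 95% confidence intervals, with LPS (upper points), without LPS (middle points) and as the difference of the 2 LPS responses (lower points). Filled points passed limma's test (Dusp1, Dusp2 and Dusp4 with LPS), dotted lines mark the median of all tested genes, and Dusp4 is the only transcript whose 3 intervals all lie below 0.

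The difference between the LPS responses of GIV-depleted and control cells was tested in the same fit. It uses the same libraries as the comparisons above and is not independent of them. None of the 9 members passed at an adjusted p under 0.05, where 0.0948% of tested genes passed as higher and 0.131% as lower. At an unadjusted p under 0.05 there were 4 members and 2374 of all tested genes. The log2 response of Dusp4 was lower in GIV-depleted cells by -1.01 ± 0.15 (interval -1.36 to -0.67, adjusted p = 0.0537). That value lay next to the threshold: it passed without the filter (adjusted p = 0.0403), with a stricter filter (log2(TPM + 1) of 3 or more, 0.0335) and under TMM (-0.87, 0.0384), in a range of 0.0335 to 0.715 over all alternatives. Dusp2 differed by 0.65 ± 0.14 (interval 0.34 to 0.97, adjusted p = 0.09) and Dusp1 by 0.55 ± 0.18 (interval 0.14 to 0.97, adjusted p = 0.191), both with larger responses in GIV-depleted cells. Dusp16 differed by 0.30 (interval 0.00 to 0.59, adjusted p = 0.287), and the intervals of Dusp5, Dusp6, Dusp7, Dusp10 and Dusp14 spanned 0.

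The library shown apart had 2.03 TPM of Dusp1, 15.5 TPM of Dusp4, 3.85 TPM of Dusp7 and 1.64 TPM of Dusp16, each below the other control libraries without LPS. Dusp2 (0.599 TPM), Dusp5 (0.558 TPM), Dusp6 (1.01 TPM), Dusp10 (0.0569 TPM) and Dusp14 (0.505 TPM) were below them too, while Dusp8, at 0.00641 TPM, was not. With it in the fit of all 10 libraries, Dusp1, Dusp2, Dusp5, Dusp6 and Dusp16 rose with LPS in GIV-depleted cells, 5 members where 16.1% of 13919 tested genes were called in either direction. In control cells Dusp1, Dusp2, Dusp5 and Dusp16 rose, 4 members where 3.46% of genes were called. None of the members was called by limma in the remaining comparisons, where the share of genes called was 0.0% for depletion with LPS, 0.0% for depletion without LPS and 0.0% for the difference of the LPS responses. At an unadjusted p under 0.05 there were 221, 408 and 226 genes in these comparisons and no member. The value of Dusp4 with LPS stayed at -1.33 with an SE of 0.99 in place of 0.12, and that of Dusp4 in the LPS response of control cells was 1.87 ± 0.99 (adjusted p = 0.509).

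The other genes of the pathway are given by counts, which are read against the shares of all tested genes that rose (15.8% in GIV-depleted and 14.8% in control cells) and fell (59.7% and 44.1%). Some listed genes, like Dusp14, were high enough for testing through libraries without LPS alone, so the filter favoured a fall in them and the counts of falls support nothing. These were Mapk12, Map2k6, Map3k6, Map3k9, Map3k12, Map3k15, Rps6ka5 and Dusp18. Of 10 tested MAP kinases, the substrates of these enzymes, 1 rose and 8 fell with LPS in GIV-depleted cells, and none rose and 5 fell in control cells. The median log2 difference of the list was -0.65 in GIV-depleted and -0.46 in control cells, close to the -0.54 and -0.40 of all tested genes. Under TMM the counts were 2 higher and 4 lower in both. Counts under TMM, here and for the lists below, have another background. Of the 13711 tested genes, TMM called 4305 higher and 4883 lower in GIV-depleted cells, and 3577 and 3649 in control cells. Quantile normalization called 3748 higher and 5586 lower in GIV-depleted cells. Mapk14 (p38 alpha) averaged 22.0 TPM in GIV-depleted cells with LPS and 46.2 TPM without (log2 difference -1.03 ± 0.07, adjusted p = 3.4e-06), and 25.8 TPM in the control library with LPS against 50.3 TPM (-0.93 ± 0.10, adjusted p = 0.000137). Mapk9 (JNK2) was lower by -0.89 and -1.09. Mapk11 (p38 beta) was the 1 MAP kinase called between GIV-depleted and control cells with LPS, where 0.89% of tested genes were called higher. It was at 8.16 TPM against 4.73 TPM (log2 difference 0.67 ± 0.14, adjusted p = 0.0406).

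Upstream, 2 of 7 MAP kinase kinases rose and 5 fell with LPS in GIV-depleted cells, and 2 rose and 3 fell in control cells. Map2k1, an activator of ERK, averaged 157 TPM with LPS and 69.3 TPM without in GIV-depleted cells (log2 difference 1.17 ± 0.08, adjusted p = 6.19e-06) and 182 against 72.9 TPM in control cells (1.31 ± 0.13). Of 21 tested MAP3 kinases and TAB adaptors, 3 rose and 15 fell in GIV-depleted cells and 3 rose and 13 fell in control cells. The riser with the largest change was Map3k8 (Tpl2), which links Toll-like receptors to ERK, at 34.7 TPM with LPS and 6.18 TPM without in GIV-depleted cells (2.31 ± 0.08) and 28.1 against 5.1 TPM in control cells (2.26 ± 0.12). Among 9 tested kinases activated by MAP kinases, 2 rose and 5 fell in GIV-depleted and 2 rose and 4 fell in control cells. Mapkapk2, the p38 target that stabilises cytokine transcripts, rose by 1.69 ± 0.06 in GIV-depleted and 2.0 ± 0.10 in control cells, and Mknk2 fell by 2.27 and 1.71. Under TMM the MAP kinase kinases had 3 higher and 2 lower in both kinds of cell, and the MAP3 kinases and adaptors 6 higher and 12 lower in GIV-depleted and 5 and 10 in control cells. The kinases activated by MAP kinases turned under TMM to 4 higher and 3 lower in GIV-depleted cells (4 and 4 under quantile normalization), with 2 and 3 in control cells. Of the 37 tested genes of these 3 groups, limma called 0 between GIV-depleted and control cells with LPS, 0 without LPS and 0 for the difference of the LPS responses. At an unadjusted p under 0.05 there were 6, 3 and 7 of the 37, against 3031, 1678 and 2374 of the 13711 tested genes. Under TMM 1 MAP3 kinase or adaptor was called higher with LPS, where 314 of the 13711 tested genes were.

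Other phosphatases and inhibitors of the pathway were counted in the same way. Of 12 other tested dual-specificity phosphatases, 1 rose and 8 fell with LPS in GIV-depleted cells and 1 rose and 7 fell in control cells, and under TMM 2 were higher and 5 lower in GIV-depleted and 2 and 4 in control cells. Their median log2 difference was -0.58 in GIV-depleted and -0.51 in control cells, near the median of all tested genes. Dusp3, an atypical phosphatase of ERK and JNK, averaged 15.9 TPM in GIV-depleted cells with LPS against 25.0 TPM in the control library with LPS (log2 difference -0.62 ± 0.14, adjusted p = 0.0464), a call that did not hold under TMM or quantile normalization. Of 8 tested serine, threonine or tyrosine phosphatases of MAP kinases, none rose and 4 fell in GIV-depleted and 3 fell in control cells, while under TMM 3 were higher and 1 lower in GIV-depleted and 4 and 1 in control cells. Ppm1d fell by 1.49 in GIV-depleted and 1.15 in control cells. Of 4 tested Sprouty and Spred inhibitors, Spred2 fell in both (-1.80 and -1.54) and Spred3 rose in GIV-depleted cells (0.61, adjusted p = 0.0198). Of 5 tested scaffolds, none rose and 4 fell with LPS in GIV-depleted and 2 fell in control cells, and Lamtor3 was lower in GIV-depleted than control cells with LPS (40.2 against 55.5 TPM, -0.46 ± 0.08, adjusted p = 0.0238), though not under TMM or quantile normalization. The direction of the scaffolds with LPS depended on the scaling: under TMM 1 was higher and 2 lower in GIV-depleted cells, and 3 were higher and none lower in control cells.

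Transcripts known to follow ERK activity were tested for 8 of the listed genes. With LPS 5 rose and 3 fell in GIV-depleted cells, and 5 rose and 2 fell in control cells. Phlda1 averaged 103 TPM with LPS and 4.58 TPM without in GIV-depleted cells (log2 difference 4.22 ± 0.08) and 86.8 against 3.66 TPM in control cells (4.24 ± 0.12). Ier3 rose by 3.33 and 3.65, and Myc by 2.72 and 3.37. In the other direction, Etv5 (log2 difference -2.19 and -2.4) and Ccnd1 (-1.88 and -1.42) fell in GIV-depleted and control cells. Etv1 was called lower in GIV-depleted cells alone (-0.34). None of the 8 was called between GIV-depleted and control cells with LPS by limma. An unadjusted p under 0.05 was found for 3 of the 8 and for 3031 of the 13711 tested genes. Ier3 was higher in GIV-depleted cells without LPS, at 54.1 against 35.2 TPM (0.60 ± 0.10, adjusted p = 0.0317). It was the 1 call of the 8 without LPS, where 0.489% of all tested genes were called higher. TMM and quantile normalization each called 3 of the 8 higher there, and 114 and 121 of the 13711 tested genes.

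**Figure D5:**
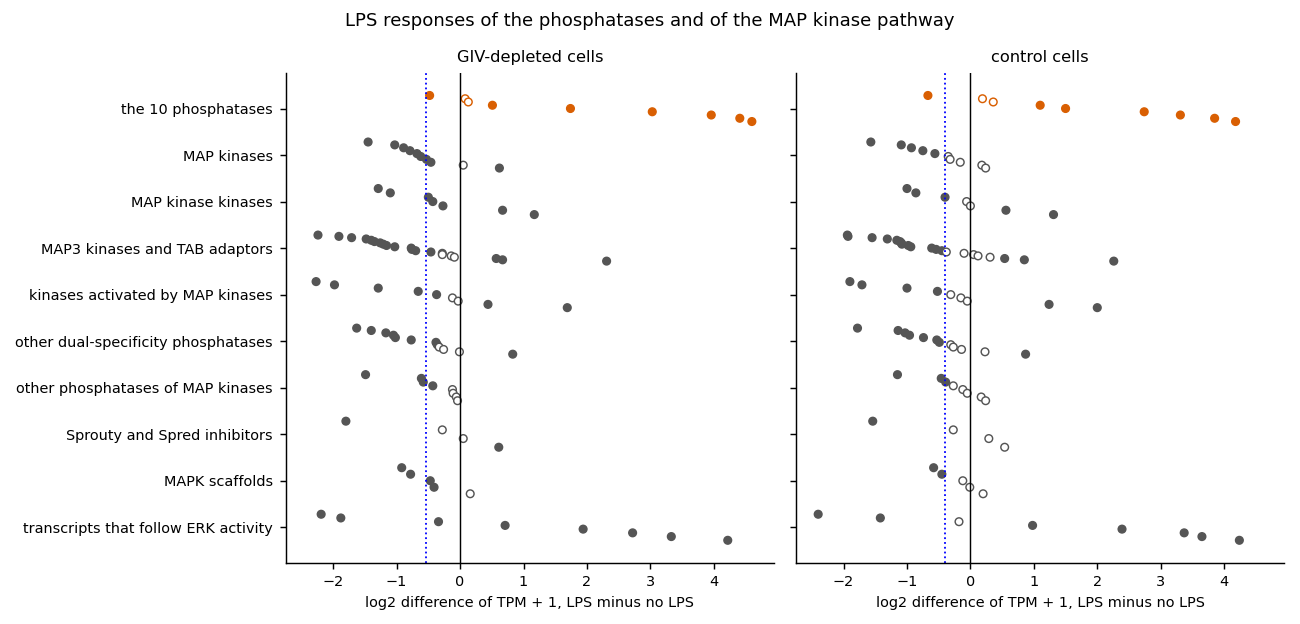
Log2 difference of TPM + 1 between LPS and no LPS (x axis) for each tested gene (point) of the phosphatase set and the MAP kinase pathway lists (y axis), in GIV-depleted cells (left) and control cells (right). Filled points passed limma's test and dotted lines mark the median of all tested genes (-0.54 and -0.40). Of the 9 tested phosphatases 6 were called higher on both sides.

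By shape across the 9 libraries, each member was set against 7927 other genes after its own mean had been taken away, with the mean absolute log2 difference as the measure of likeness. Nearest to Dusp4 were Metrnl (0.123), Tgm2 (0.132) and Slc23a2 (0.135). Metrnl averaged 35.1 TPM in GIV-depleted cells with LPS and 28.9 TPM without, against 71.3 TPM in the control library with LPS and 43.2 TPM in control cells without. Tgm2, the tissue transglutaminase, averaged 25.2 and 19.0 TPM in GIV-depleted cells with and without LPS, and 60.3 and 25.9 TPM in control cells with and without LPS. Both were highest in the control library with LPS, as Dusp4 was. They were picked for their likeness to Dusp4 over these same libraries, so the choice favoured this match and it supports nothing. Among the genes nearest to Dusp1 were Igtp (0.111) and Ass1 (0.146), and Igtp, an interferon-inducible GTPase, was also second nearest to Dusp5 (0.134) after Oasl1 (0.127). Dusp2 lay nearest to Nupr1 (0.146), Dusp6 to Klf6 (0.0636), Dusp16 to Pnp (0.0491), Dusp10 to Cybc1 (0.0612), Dusp14 to Kif1bp (0.0584) and Dusp7, the steadiest member, to Bsdc1 (0.0226).

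The members also differ in a sequence feature of short-lived transcripts, the pentamer ATTTA in the 3′ untranslated region. Dusp2 held 4 in 581 bases (6.88 per kb) and Dusp1 4 in 690 bases (5.8 per kb). Among the 17108 genes with a 3′ untranslated region of at least 200 bases, 2.67% had at least as many per kb as Dusp2 and 4.34% as many as Dusp1, and the median was 1.47 per kb. Dusp10 followed with 2.7, Dusp8 with 2.11, Dusp4 with 1.8, Dusp16 with 1.24, Dusp5 with 0.902 and Dusp6 with 0.841 per kb. Dusp7 and Dusp14 held none. Per kb, the strongly rising Dusp5 and Dusp16 were thus below the median gene. By count, Dusp16 held 3 and Dusp5 held 1, where the median gene held 1. The barely detected Dusp8 held the most of the set, 5, and Dusp10 held 3. At least the 4 of Dusp1 and Dusp2 were held by 24.9% of genes with a 3′ untranslated region.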

How the data were processed

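RNA of 10 libraries with a column was analysed. The authors deposited log2(TPM + 1) values per gene, and the submitters' processing notes name kallisto 0.45.0 and GRCm38. The annotation release used for them is not given in the sources used here. In each library 2 to the power of the value, minus 1, added up to 1000000, and TPM was recovered that way. TPM keeps no read total, so depth and counting precision are unknown. Members and lists were chosen with earlier results of these data known.

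The test was limma 3.58.1 (R 4.3.3) on the deposited log2 values with 4 group means, empirical Bayes with a mean-variance trend, and Benjamini-Hochberg adjustment over all 13711 tested genes, in 9 libraries. The call threshold was an adjusted p of 0.05. Tested genes had a value of at least 1 in at least 2 libraries. Scripts were tested on simulated data. Alternatives were other filters, a pseudocount of 0.1, TMM and quantile scaling, no trend, the set number as a block, only the groups compared, all 10 libraries, and each library left out. Named were all 10 members, Ccdc88a, from each list up to 3 called genes with the largest change (or 2 with the highest level), and the 3 genes nearest to each member. Some genes these rules name are not reported here. GENCODE M21 gave exons and RefSeq gave promoters.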

Additional observations from a re-analysis of the deposited data

How the results depend on the processing

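The rises of Dusp1, Dusp2, Dusp5 and Dusp16 with LPS passed in both kinds of cell under every alternative run. With all 10 libraries the members called for LPS in control cells fell to 4, the members called for depletion with LPS to 0, and the genes called were 2236 (LPS, GIV-depleted), 481 (LPS, control), and 0 in each of the other 3 comparisons. Also with all 10, the differences without LPS turned for Dusp4 (0.45), Dusp5 (0.54), Dusp6 (0.13), Dusp7 (0.62), Dusp14 (0.14) and Dusp16 (0.07), and the differences of the LPS responses turned for Dusp1 (-0.32), Dusp5 (-0.22), Dusp6 (-0.23), Dusp10 (-0.15) and Dusp14 (-0.03).

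With the set number as a replicate block, 1 member (Dusp4) was called for depletion with LPS: Dusp1 had 0.67 (adjusted p = 0.139) and Dusp2 0.77 (adjusted p = 0.0603). Genes called under the block numbered 58 for depletion at rest, 83 under LPS and 0 for the difference of the responses. It turned Dusp10 without LPS (-0.01), Dusp7 with LPS (0.02) and the difference of Dusp7 (0.11). It also ended both calls of Dusp14 (-0.48 and -0.60). The numbers were not taken as pairing the samples: same-numbered GIV-depleted libraries with and without LPS correlated at 0.0617 to 0.097 in their deviations, although each correlated best with its own number.

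Quantile normalization called 1 member and 309 genes for depletion without LPS, and turned Dusp6 (0.06) and Dusp7 (0.07) with LPS and the difference of Dusp7 (0.12). TMM called 1 member and 87 genes for the difference, and turned Dusp6 (0.04) and Dusp7 (0.06) with LPS and the difference of Dusp7 (0.08). Without a filter 1 member and 360 genes, and with the stricter filter 1 member and 73 genes, were called for the difference. Fitting only the groups compared called 47 genes without LPS and 69 with LPS, and it cannot be applied to the difference.

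Leaving out 1 library at a time called 58 to 167 genes for depletion without LPS, 325 to 953 with LPS and 0 to 21 for the difference. Without LPS, small differences turned in such fits for Dusp1 (-0.08 to 0.26), Dusp5 (-0.29 to 0.08), Dusp7 (-0.10 to 0.03), Dusp10 (-0.14 to 0.19) and Dusp14 (-0.26 to 0.09), and the difference of the LPS responses did for Dusp7 (-0.14 to 0.01) and Dusp10 (-0.01 to 0.32). Leaving out the lone control library with LPS left only the 2 comparisons that do not use it. The cause of these changes was not tested. The single control library with LPS and the unknown depth limit all statements on GIV depletion under LPS.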
